A study of Mus musculus with 12 samples.

Results

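Matrix metalloproteinases are zinc-dependent proteases that cut collagens, gelatin, elastin and other proteins of the extracellular matrix, and tissue inhibitors of metalloproteinases (TIMPs) bind and block them. In the gut they are made by epithelial, stromal and immune cells, and several rise in inflamed or ulcerated colon. The genes described here were 8 proteases (Mmp2, Mmp3, Mmp7, Mmp9, Mmp10, Mmp12, Mmp13 and Mmp14) and 2 inhibitors (Timp1 and Timp3). They were taken by gene symbol, and all 10 were found among the 55335 genes of the expression table.

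The data were bulk RNA sequencing of the colon of wild-type mice in which a chemical had induced colitis. There were 4 groups of 3 libraries: TNBS colitis with thymopentin, TNBS colitis with normal saline, DSS colitis with thymopentin, and DSS colitis with normal saline. TNBS is the hapten trinitrobenzene sulfonic acid, DSS is the polymer dextran sulfate sodium, which injures the epithelium, and thymopentin is a synthetic peptide derived from the thymic hormone thymopoietin. Every group carried colitis, and no library of a colon without colitis was analysed, so levels are set between treated and saline mice of the same colitis model, or between models. The sources used here give no dose, timing, strain, sex or age, and do not say whether the 3 libraries of a group came from separate animals. If they did not, the p-values measure only the spread between these libraries, which may be technical.

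Levels are FPKM, fragments scaled to transcript length and library size, as the authors deposited them, so levels of different genes are compared per length. Tests used limma on log2(FPKM + 1) over the 13794 genes with a mean of at least 1 FPKM, and a gene was called changed at a Benjamini-Hochberg adjusted p under 0.05. Adding 1 shrinks the log2 changes of weakly expressed genes. Of the 10 genes, 8 passed the filter, while Mmp9 and Mmp12 lay below it. Mmp7 passed through TNBS saline alone, with a mean of 5.11 FPKM there. Its means were 0.137 FPKM in TNBS thymopentin, 0.0341 in DSS thymopentin and 0.101 in DSS saline. Mmp10 passed through the saline groups, at 1.60 FPKM in TNBS and 2.25 in DSS, against 0.420 and 0.425 with thymopentin. The filter thus kept these genes because of the groups where they are high. The summed FPKM per library ran from 384431 to 532510, and Pearson correlations of log2 levels between libraries of a group ran from 0.932 to 0.977. The library TNBS saline 3 stood apart: Hoxb13, a homeobox gene of the distal gut, had 0.722 FPKM there, against 50.04 and 86.9 FPKM in TNBS saline 1 and 2 and 49.4 to 122 FPKM in the 9 libraries of the other groups. Hoxb13 also separated the DSS groups without overlap. It had 122, 109 and 104 FPKM in DSS thymopentin libraries and 52.8, 59.9 and 65.4 FPKM in DSS saline libraries. Whether the DSS groups differed in position along the colon, and what part this had in the DSS results, was not tested. The TNBS changes of Mmp2, Mmp7, Mmp10, Mmp13 and Timp3 are given with and without TNBS saline 3. The group means, sums and ratios include it.

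Mmp13, Mmp12, Mmp3, Mmp10 and Mmp7 lie in this order along mouse chromosome 9, in a run of 10 metalloproteinase genes. Much of what follows is about these secreted proteases, and their promoter windows that hold the heptamer named below are shown. Each line gives 100 bases before the RefSeq start site and 20 bases after it, on the plus strand of GRCm38.p6. Capitals mark the heptamer TGAGTCA or its other strand TGACTCA, the textbook binding sequence of the AP-1 transcription factors, and TATAAA, a hexamer found in many core promoters.

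Mmp7 (matrilysin), chr9:7691990-7692109: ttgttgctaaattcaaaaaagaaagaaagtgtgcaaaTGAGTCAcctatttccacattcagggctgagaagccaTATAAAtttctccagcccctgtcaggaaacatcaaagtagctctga
Mmp10 (stromelysin 2), chr9:7502242-7502361: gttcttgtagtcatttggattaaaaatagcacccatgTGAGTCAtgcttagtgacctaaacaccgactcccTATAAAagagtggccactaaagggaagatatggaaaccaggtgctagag
Mmp3 (stromelysin 1), chr9:7445722-7445841: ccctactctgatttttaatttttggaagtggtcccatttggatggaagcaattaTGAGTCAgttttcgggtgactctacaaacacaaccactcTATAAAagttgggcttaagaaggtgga
Mmp13 (collagenase 3), chr9:7272414-7272533: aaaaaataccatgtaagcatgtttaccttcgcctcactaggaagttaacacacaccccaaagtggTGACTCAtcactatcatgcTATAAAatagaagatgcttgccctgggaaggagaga
Mmp12 (macrophage elastase), chr9:7347274-7347393: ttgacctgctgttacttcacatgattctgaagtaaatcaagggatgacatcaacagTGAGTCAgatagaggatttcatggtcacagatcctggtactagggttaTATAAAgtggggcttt

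The 5 windows shown were chosen from the 10 windows of the matched genes because they hold the heptamer. In all 5 it is followed by a TATAAA. That TATAAA lies at −26 to −21 in Mmp7, −29 to −24 in Mmp10, −16 to −11 in Mmp13 and −7 to −2 in Mmp3. In Mmp12 it lies after the start site, at bases 4 to 9. The heptamer spans bases −63 to −57 before the start site in both Mmp7 and Mmp10, −46 to −40 in Mmp3, −44 to −38 in Mmp12 and −35 to −29 in Mmp13, and Mmp7 has an additional TATAAA at −123 to −118. Promoter letters of 8 of the 10 genes were matched by symbol, and those of Mmp2 and Mmp9 were not. The windows searched were 300 bases long, from 250 bases before the start site to 50 after it, and both strands were read for the heptamer. None of the windows of Mmp14, Timp1 and Timp3 holds either motif, nor does the alternative start site listed for Mmp7 or for Mmp12. Among all 32851 such windows of mouse genes, 5.2% hold the heptamer, 8.32% hold TATAAA, and 0.131% (43 windows) hold the heptamer with a TATAAA within 50 bases after it. A match describes letters only and shows neither a bound site nor a cause of the levels below. The authors' processing notes name build mm9, so the windows were joined to the levels by gene symbol and not by coordinates.

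**Figure D1:**
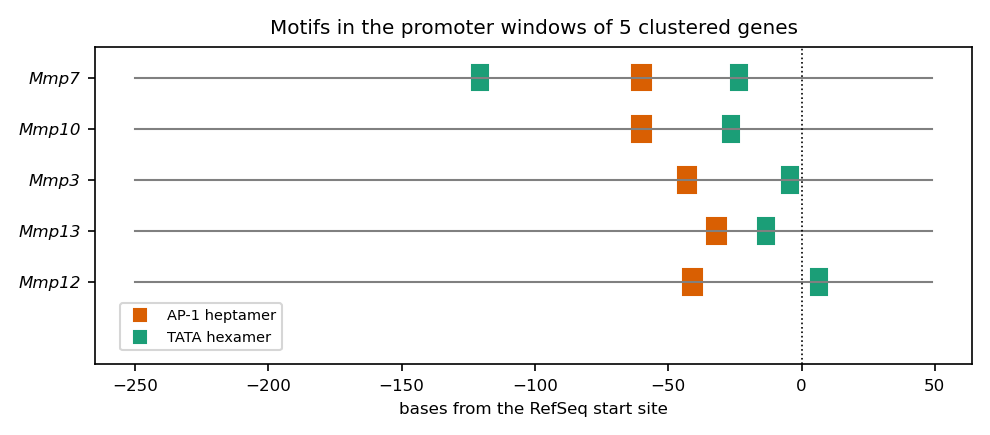
Positions of the AP-1 heptamer (orange) and of TATAAA (green) in the promoter windows of the 5 chromosome 9 genes, in bases from the RefSeq start site (dotted line). The start sites drawn were chosen for the heptamer. In all 5 it is followed by a TATAAA, and it lies at the same distance from the start in Mmp7 and Mmp10. In Mmp12 that TATAAA lies after the start site.

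With thymopentin, Mmp10 fell in both colitis models, Mmp7 fell in TNBS colitis, and Timp3 fell in DSS colitis. None of the 8 tested genes was called higher with thymopentin in either model by limma, and at an unadjusted p under 0.05 only Timp3, in TNBS colitis, was higher. In TNBS colitis 2 of the 8 tested genes were called, both lower, against 0.667% of all genes called in either direction, 0.384% called lower and 0.283% called higher. In DSS colitis 2 of 8 were called, both lower, against 17.0% of all genes called in either direction, 4.30% called lower and 12.7% called higher. The median log2 change of the 8 genes was −0.31 in TNBS colitis, against 0.03 over all genes tested, and −0.37 in DSS colitis, against 0.12 over all genes tested. The response itself differed between the models for 2 of 8 genes, against 5.15% of all genes: Mmp7 was higher in DSS (2.73% of all genes) and Timp3 lower (2.42%). Mmp7 was hardly expressed in either DSS group, so its difference restates its fall in TNBS colitis. Of all differing responses 53.0% were higher in DSS, against 41.1% after quantile normalization and 33.8% after median-ratio rescaling. The median difference of the 8 genes was −0.30, against 0.11 over all genes. Of all calls, 42.4% were higher in TNBS colitis and 74.7% in DSS colitis. After quantile normalization these shares were 33.7% and 52.5%, and after rescaling by median ratios they were 33.3% and 44.0%. Under both rescalings Mmp10, Mmp7 and Timp3 kept the directions and calls given here.

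**Figure D2:**
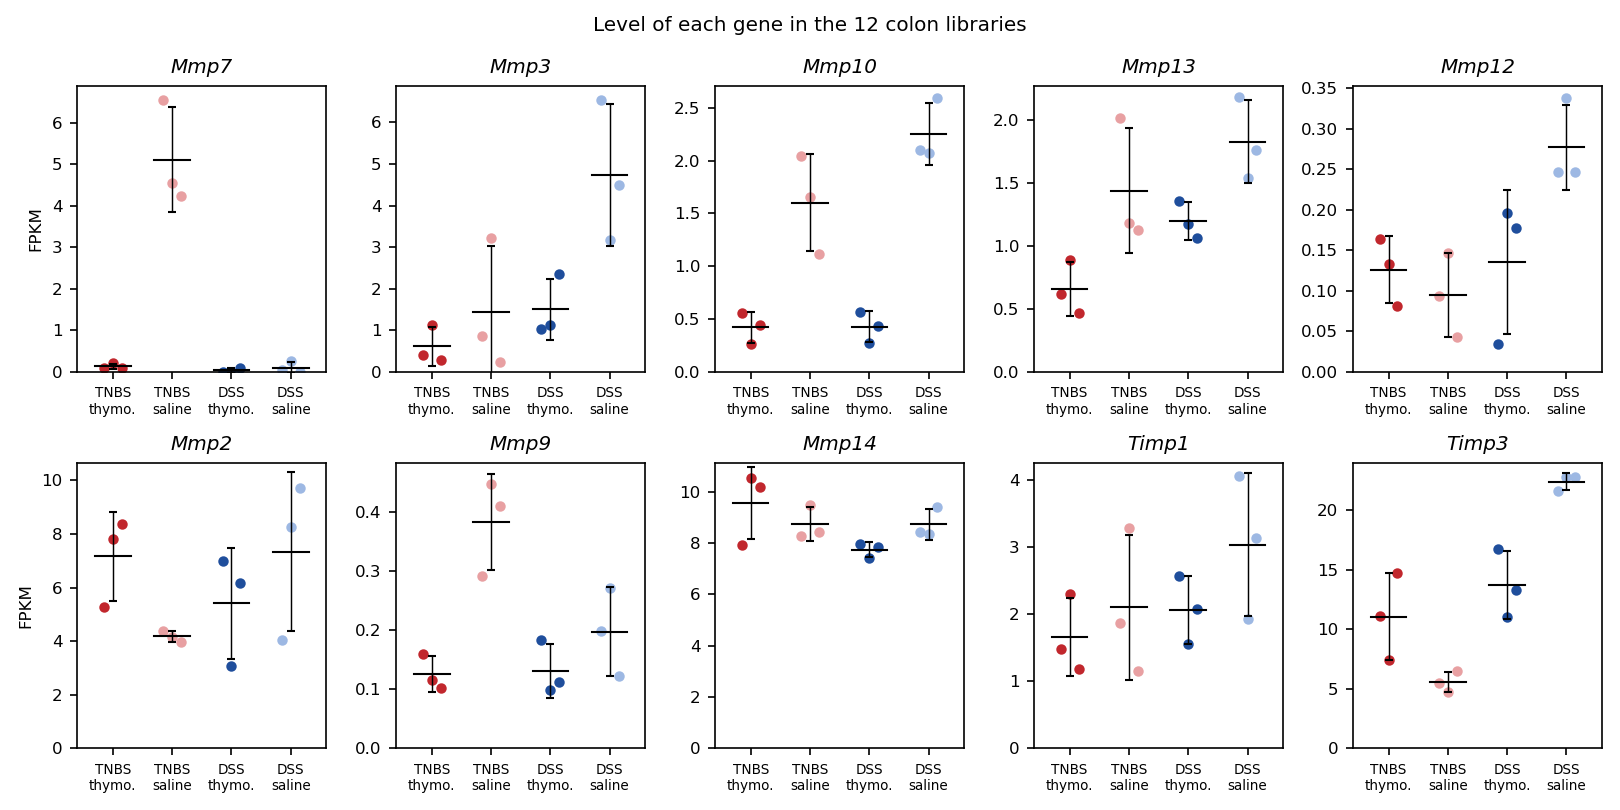
FPKM of the 10 genes in each of the 12 libraries (points), with the group mean and SD, in a panel for each gene and with thymopentin left of saline in each model. Mmp7 is high in the TNBS saline libraries alone, Mmp10 is lower with thymopentin in both models, and the thymopentin libraries of Timp3 lie below saline in DSS and above saline in TNBS colitis.

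Mmp7 encodes matrilysin, a small protease made mainly by epithelial cells, which in mouse Paneth cells activates α-defensins. It had 0.0982, 0.209 and 0.102 FPKM in TNBS thymopentin libraries 1 to 3, against 6.56, 4.56 and 4.23 FPKM in TNBS saline libraries 1 to 3. In DSS colitis it was at or near 0, with 0, 0 and 0.102 FPKM with thymopentin and 0.0488, 0.254 and 0 FPKM with saline. The 3 TNBS saline libraries thus stood above all 9 others, and the TNBS groups did not overlap. Reads recovered from the authors' per-library values in TNBS colitis were 5, 9 and 5 for Mmp7 with thymopentin and 300, 180 and 202 with saline.

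Mmp7 fell by 2.41 on the log2(FPKM + 1) scale in TNBS colitis (SE 0.15, limma adjusted p = 0.000136), and the authors' deposited table gives a log2 fold change of −4.97 (FDR 1.38e-27). In DSS colitis the change was −0.08 ± 0.15 (SE, limma adjusted p = 0.729), with overlapping libraries. The response was 2.32 ± 0.21 (SE) log2 units less negative in DSS than in TNBS colitis, and this difference itself was called (limma adjusted p = 0.00295). With 0.0488, 0.254 and 0 FPKM in DSS saline libraries there was almost no level to fall from. The difference thus restates the TNBS fall and cannot show how Mmp7 responds in DSS colitis. Leaving out any of the 12 libraries kept the TNBS call, with adjusted p between 0.000286 and 0.00212, and without TNBS saline 3 the change was −2.51 (adjusted p = 0.000485). With a pseudocount of 0.01 in place of 1 neither the TNBS change (−5.18, limma adjusted p = 0.154) nor the difference (3.92, limma adjusted p = 0.300) was called. Whether fewer cells of a type or less RNA per cell lay behind a lower level cannot be told apart in these bulk samples, here or below.

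Markers of the cells known to make Mmp7 were measured beside it. The summed FPKM of 10 epithelial markers was 6136 to 6803 in TNBS thymopentin libraries and 6423 to 9796 in TNBS saline libraries, and 0 of the 10 were called by limma in TNBS colitis (3 lower at an unadjusted p under 0.05). Over all genes 0.667% were called there. Of 10 Paneth cell markers 5 were listed at 0 in all 12 libraries, and their summed FPKM was 10.6 to 185 in TNBS thymopentin libraries and 9.11 to 30.5 in TNBS saline libraries. Of the 3 Paneth cell markers that passed the filter none was called by limma in any comparison, and 1 was higher in TNBS thymopentin libraries at an unadjusted p under 0.05. Their part in the Mmp7 result was not tested.

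Mmp10 encodes stromelysin 2, which cuts proteoglycans and glycoproteins of the matrix and activates other proteases of the family. It had 0.554, 0.264 and 0.441 FPKM in TNBS thymopentin libraries, against 2.04, 1.65 and 1.12 FPKM in TNBS saline libraries. In DSS colitis it had 0.569, 0.276 and 0.431 FPKM with thymopentin, against 2.10, 2.07 and 2.59 FPKM with saline. In each model every thymopentin library was below every saline library, and the 6 thymopentin libraries covered nearly the same range in the 2 models. The reads behind these values were 40, 18 and 31 in TNBS thymopentin and 151, 105 and 86 in TNBS saline libraries, and 38, 16 and 30 in DSS thymopentin and 151, 137 and 171 in DSS saline libraries.

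Mmp10 fell by 1.19 on the log2(FPKM + 1) scale in DSS colitis (SE 0.15, limma adjusted p = 0.00155), which is −1.31 relative to the median change of all genes in that comparison. It fell by 0.86 in TNBS colitis (SE 0.15, limma adjusted p = 0.0318). The difference between the 2 responses was −0.33, with a 95% interval of −0.80 to 0.14 (limma adjusted p = 0.404). The authors' deposited table gives −2.52 (FDR 1.82e-12) in DSS and −1.95 (FDR 0.000147) in TNBS colitis. The DSS call was kept whichever library was left out (adjusted p at most 0.00885). The TNBS call was lost on leaving out any TNBS library other than TNBS saline 3, or DSS thymopentin 3 or DSS saline 3, with adjusted p between 0.0548 and 0.123, and it was lost with the replicate number as a block (adjusted p = 0.0654), with no filter (0.0841) and in a fit of the 2 TNBS groups alone (0.180). Without TNBS saline 3 the TNBS change was −1.005 (adjusted p = 0.0188).

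Mmp3 encodes stromelysin 1, a close relative of Mmp10 that stromal cells make in inflamed tissue. It had 1.02, 1.14 and 2.36 FPKM in DSS thymopentin libraries, against 6.54, 3.16 and 4.49 FPKM in DSS saline libraries, with no overlap. In TNBS colitis it had 0.403, 1.13 and 0.290 FPKM with thymopentin and 0.866, 3.23 and 0.227 FPKM with saline, and here the groups overlapped. TNBS saline 2 held the highest and TNBS saline 3 the lowest Mmp3 level of the 6 TNBS libraries.

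The DSS change of Mmp3 was −1.19 ± 0.42 (SE, limma adjusted p = 0.0727), which missed the threshold, while the authors' deposited table gives −1.81 (FDR 1.76e-05). Leaving out TNBS saline 2 or 3, whose spread enters the shared variance, brought it past the threshold (adjusted p = 0.0269 and 0.0431). So did quantile normalization (limma adjusted p = 0.0456), array weights (0.0395), the replicate block (0.0380) and a fit of the 2 DSS groups alone (0.0411). Median-ratio rescaling and pseudocounts of 0.1 and 0.01 did not. In TNBS colitis the change was −0.44 ± 0.42 (SE, adjusted p = 0.733), and it was 0.05 without TNBS saline 2. The difference between the 2 responses was −0.75, with a 95% interval of −2.05 to 0.55 (limma adjusted p = 0.504).

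Mmp13 encodes collagenase 3, which in mice is the main protease that opens fibrillar collagen. It had 0.614, 0.890 and 0.463 FPKM in TNBS thymopentin libraries, against 2.01, 1.18 and 1.12 FPKM in TNBS saline libraries. It had 1.35, 1.17 and 1.06 FPKM in DSS thymopentin libraries, against 2.18, 1.54 and 1.76 FPKM in DSS saline libraries. Thymopentin libraries lay below saline libraries without overlap in both models, yet neither change was called: −0.55 ± 0.16 in TNBS colitis (SE, limma adjusted p = 0.167) and −0.36 ± 0.16 in DSS colitis (SE, limma adjusted p = 0.137). Without TNBS saline 3 the TNBS change was −0.64 (limma adjusted p = 0.153). The authors' deposited table lists Mmp13 in TNBS colitis, at −1.17 (FDR 0.0391).

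Mmp12, the elastase of macrophages, and Mmp9, gelatinase B of neutrophils and macrophages, were expressed weakly and were not tested with the other genes. Mmp12 had 0.0339, 0.196 and 0.178 FPKM in DSS thymopentin libraries, against 0.247, 0.338 and 0.247 FPKM in DSS saline libraries, without overlap. In TNBS colitis it had 0.164, 0.133 and 0.0818 FPKM with thymopentin and 0.0933, 0.147 and 0.0431 FPKM with saline, which overlapped. Mmp9 had 0.160, 0.116 and 0.102 FPKM in TNBS thymopentin libraries, against 0.291, 0.447 and 0.410 FPKM in TNBS saline libraries, without overlap. Its reads there were 24, 16 and 15 with thymopentin and 45, 60 and 65 with saline. In DSS colitis Mmp9 had 0.183, 0.0979 and 0.112 FPKM with thymopentin and 0.198, 0.272 and 0.122 FPKM with saline, which overlapped. With a pseudocount of 0.1 and a lower filter, a setting chosen after the data were seen, the change of Mmp9 in TNBS colitis was −1.09 ± 0.27 (SE, limma adjusted p = 0.132) and that of Mmp12 in DSS colitis −0.75 ± 0.34 (SE, limma adjusted p = 0.191). The authors' deposited table gives −1.60 for Mmp9 in TNBS colitis (FDR 0.00395) and −1.42 for Mmp12 in DSS colitis (FDR 0.117).

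**Figure D3:**
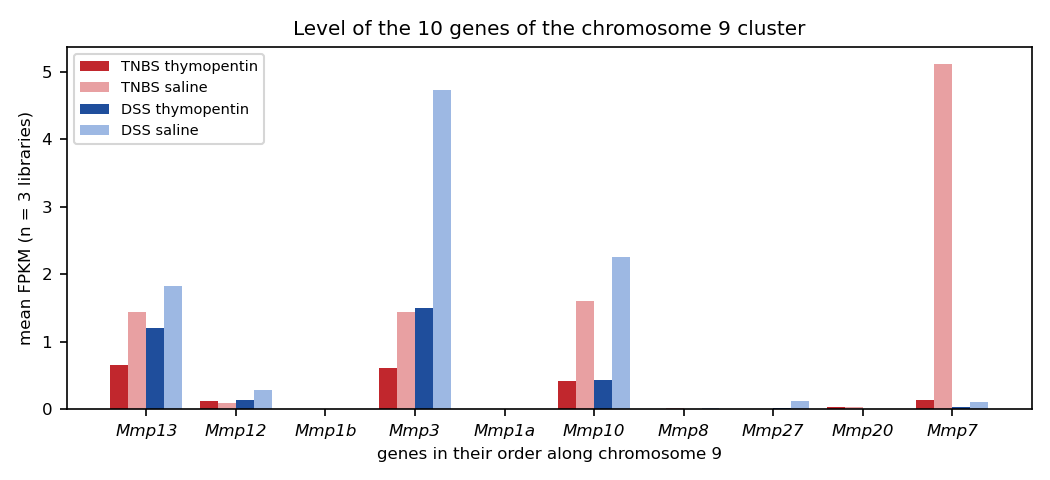
Mean FPKM (bars, n = 3 libraries) of the 10 metalloproteinase genes on chromosome 9, in chromosome order, for the 4 groups. Mmp7, at the end of the run, is above 1 FPKM in TNBS saline alone, Mmp10 and Mmp3 are highest in DSS saline, and the 5 genes outside the 10 described are at or near 0.

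Neighbours on chromosome 9 differed in level. In DSS saline libraries Mmp3 averaged 4.73 ± 1.70, Mmp10 2.25 ± 0.29 and Mmp13 1.83 ± 0.33 FPKM while Mmp7 averaged 0.101 ± 0.135 FPKM (SD, n = 3). Mmp1a and Mmp1b, the mouse relatives of interstitial collagenase, were listed at 0 in all 12 libraries, and group means of Mmp8, Mmp20 and Mmp27 did not exceed 0.116 FPKM. Over the 12 libraries Pearson's r of log2(FPKM + 1) was 0.759 between Mmp13 and Mmp10, 0.668 between Mmp13 and Mmp3 and 0.617 between Mmp10 and Mmp3. With Mmp7 it was 0.379 for Mmp10, 0.219 for Mmp13 and −0.205 for Mmp3. These coefficients describe 12 libraries that share their groups and carry no test.

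Mmp2, gelatinase A of fibroblasts, and Mmp14, the membrane-bound protease that activates it on the cell surface, were the most abundant proteases of the 8 in 3 of the 4 groups, and Mmp14 was the most abundant in all 4. Mmp2 had 5.27, 7.83 and 8.39 FPKM in TNBS thymopentin libraries, against 4.38, 4.17 and 3.99 FPKM in TNBS saline libraries. It had 7.0, 3.07 and 6.19 FPKM in DSS thymopentin libraries and 4.02, 8.27 and 9.73 FPKM in DSS saline libraries. The TNBS groups did not overlap and the DSS groups did. Neither change was called, at 0.64 ± 0.31 in TNBS colitis (SE, limma adjusted p = 0.437) and −0.36 ± 0.31 in DSS colitis (SE, limma adjusted p = 0.433). Without TNBS saline 3 the TNBS change was 0.61 (limma adjusted p = 0.507).

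Mmp14 had group means between 7.74 and 9.56 FPKM. It had 7.94, 10.5 and 10.2 FPKM in TNBS thymopentin libraries and 8.29, 9.51 and 8.45 FPKM in TNBS saline libraries. It had 7.98, 7.42 and 7.83 FPKM in DSS thymopentin libraries, against 8.43, 8.35 and 9.42 FPKM in DSS saline libraries. Only the DSS groups did not overlap, and the DSS change was −0.15, with a 95% interval of −0.39 to 0.08 (limma adjusted p = 0.333).

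Timp3, an inhibitor held in the matrix that also blocks ADAM17 and aggrecanases, was the most abundant of the 10 genes in all groups but TNBS saline. It had 16.8, 11.04 and 13.3 FPKM in DSS thymopentin libraries, against 21.6, 22.8 and 22.8 FPKM in DSS saline libraries. In TNBS colitis it had 11.1, 7.38 and 14.7 FPKM with thymopentin, against 5.47, 4.77 and 6.48 FPKM with saline. The groups did not overlap in either model, and thymopentin libraries were the lower ones in DSS and the higher ones in TNBS colitis.

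Timp3 fell by 0.69 on the log2(FPKM + 1) scale in DSS colitis (SE 0.21, limma adjusted p = 0.0495), or −0.81 relative to the median of all genes. The TNBS change was 0.84 ± 0.21 (SE, limma adjusted p = 0.116), which was not called. Without TNBS saline 3 it was 0.93 (limma adjusted p = 0.139). The 2 responses differed by −1.52 ± 0.30 (SE, limma adjusted p = 0.0229). The DSS call sat at the threshold and was lost without TNBS thymopentin 1, any TNBS saline library, DSS thymopentin 2 or 3, or any DSS saline library, with adjusted p between 0.0504 and 0.158, as well as with a pseudocount of 0.1 (0.0570) and with no filter (0.101). The difference was no longer called without TNBS thymopentin 1, TNBS saline 1, DSS thymopentin 2 or DSS saline 3 (adjusted p between 0.0509 and 0.0603) or without a filter (0.0522), and it was −1.62 (adjusted p = 0.0251) without TNBS saline 3. The TNBS change became a call without TNBS thymopentin 2, the lowest library of its group (log2 change 1.08, adjusted p = 0.0349).

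**Figure D4:**
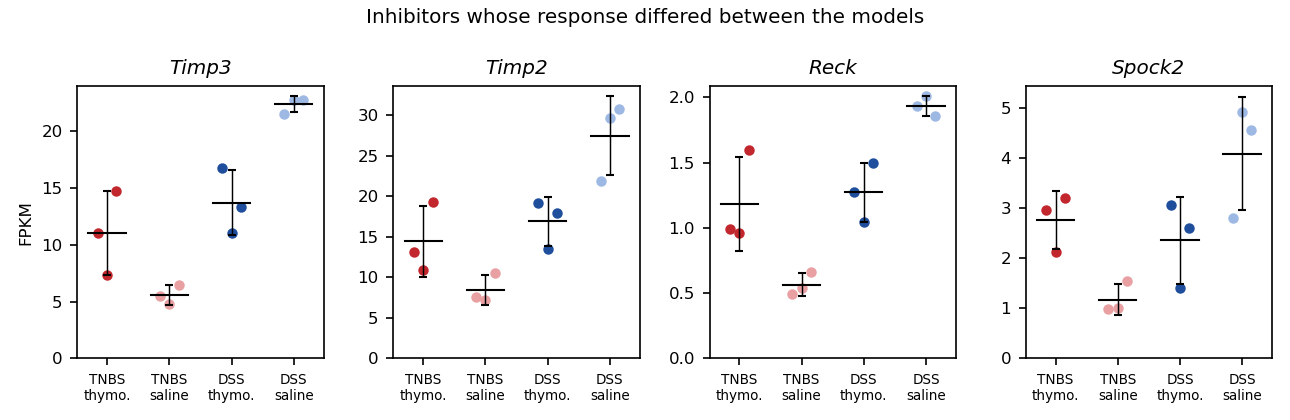
FPKM of Timp3, and of Timp2, Reck and Spock2 from the list of inhibitors and related genes, in the 12 libraries (points). Group means and SD are drawn, with thymopentin left of saline in each model. Timp3 and Timp2 are highest in DSS saline and lowest in TNBS saline, with the thymopentin groups between.

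Timp1, a secreted inhibitor that inflammatory cytokines induce, was not called in either model. It had 1.49, 2.30 and 1.18 FPKM in TNBS thymopentin libraries and 1.86, 3.28 and 1.16 FPKM in TNBS saline libraries. It had 2.56, 1.55 and 2.07 FPKM in DSS thymopentin libraries and 4.05, 1.92 and 3.13 FPKM in DSS saline libraries. The groups overlapped in both models, and the changes were −0.19 ± 0.28 in TNBS (SE, limma adjusted p = 0.849) and −0.38 ± 0.28 in DSS colitis (SE, limma adjusted p = 0.367). Without TNBS saline 2 the TNBS change was 0.07. Over the 12 libraries Pearson's r of log2(FPKM + 1) was 0.868 between Timp1 and Mmp3 and 0.253 between Timp1 and Timp3.

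Markers of stromal cells were set beside Timp3. The summed FPKM of 10 fibroblast markers was 138 to 163 in TNBS thymopentin libraries, against 88.1 to 101 in TNBS saline libraries, and 180 to 204 in DSS thymopentin libraries, against 215 to 254 in DSS saline libraries. Of these 10, 3 rose in TNBS colitis and 3 fell in DSS colitis, where 0.283% and 4.30% of all genes did so. The collagen-binding proteoglycan Dcn did both, at 0.83 (limma adjusted p = 0.00674) and −0.51 (limma adjusted p = 0.0104). The response was called lower in DSS than in TNBS colitis for 4 of the 10, against 2.42% of all genes. At an unadjusted p under 0.05 it was lower for 8 of the 10, where 3051 of 13794 genes passed in either direction. Of 10 smooth muscle markers 4 fell in DSS colitis, against 4.30% of all genes. None was called by limma in TNBS colitis (1 higher at an unadjusted p under 0.05). The response of 1 of these 10 was called lower in DSS than in TNBS colitis (9 lower at an unadjusted p under 0.05). Their summed FPKM was 1837 to 2613 in TNBS thymopentin and 881 to 2713 in TNBS saline libraries, and 1564 to 2343 in DSS thymopentin and 3506 to 4074 in DSS saline libraries. Of 6 tested endothelial markers 1, Esam, fell in DSS colitis, against 4.30% of all genes. The response of 1 of the 6 was called lower in DSS than in TNBS colitis (5 lower at an unadjusted p under 0.05). The summed level of all 8 was 12.5 to 16.2 in TNBS thymopentin and 9.21 to 13.5 in TNBS saline libraries, and 15.8 to 18.1 in DSS thymopentin and 21.3 to 27.7 in DSS saline libraries. No marker of these 3 lists was at 0 in all 12 libraries, and their part in the Timp3 result was not tested.

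Markers of myeloid cells were set beside Mmp10, Mmp3 and Mmp12. Of 4 tested neutrophil markers, S100a8 and S100a9, the calprotectin subunits, fell in DSS colitis by 1.66 and 2.06 (limma adjusted p = 0.00766 and 0.00689). In TNBS colitis they changed by −1.45 and −1.36 without a call (limma adjusted p = 0.0687 and 0.143). The other tested markers, Ly6g and Cd177, were not called in either model. Cd177 was higher with thymopentin in DSS colitis without overlap, at 48.1, 40.0 and 41.3 FPKM against 24.6, 36.0 and 32.1 FPKM. Ly6g overlapped there. Ly6g reached 308 and Cd177 136 FPKM, while no other marker of the list exceeded 4.22 FPKM, so the sum below is mostly these genes. The other neutrophil markers included 5 under 1 FPKM in all 12 libraries, and the summed level of the 10 was 94.8 to 212 in TNBS thymopentin and 107 to 211 in TNBS saline libraries, and 178 to 266 in DSS thymopentin and 227 to 350 in DSS saline libraries. Of 10 macrophage and monocyte markers, Mrc1 and Ccr2 fell in DSS colitis, where 4.30% of all genes were called lower. None of the 10 was called by limma in TNBS colitis (1 higher at an unadjusted p under 0.05). Their summed FPKM was 77.5 to 159 in TNBS thymopentin and 80.4 to 209 in TNBS saline libraries, and 280 to 332 in DSS thymopentin and 375 to 518 in DSS saline libraries. No macrophage or neutrophil marker was at 0 in all 12 libraries, and the part of these cells in the protease levels was not tested.

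**Figure D5:**
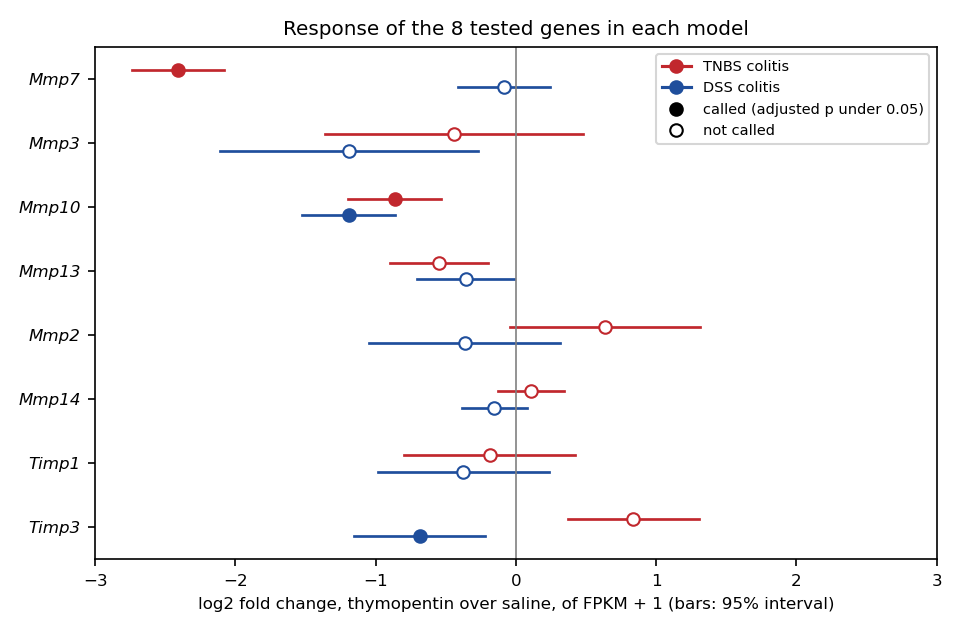
Log2 change with thymopentin against saline, on the log2(FPKM + 1) scale, of the 8 tested genes in TNBS and in DSS colitis, with 95% intervals from limma. Filled points mark adjusted p under 0.05, and Mmp7, Mmp10 and Timp3 carry the calls.

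Counted without a test, 5 of the 8 tested genes had thymopentin and saline libraries that did not overlap in TNBS colitis (3 lower and 2 higher with thymopentin), against 18.8% of all genes, 6.75% lower and 12.1% higher. In DSS colitis 5 of 8 did not overlap, all lower with thymopentin, against 39.8% of all genes, 11.5% lower and 28.3% higher. The sum of the 2 inhibitors over the sum of the 8 proteases, in FPKM, was 0.826, 0.458 and 0.794 in TNBS thymopentin libraries, against 0.299, 0.323 and 0.390 in TNBS saline libraries. In DSS colitis the ratio was 1.07, 0.942 and 0.843 with thymopentin and 1.08, 1.02 and 0.913 with saline. The ratio was higher with thymopentin in every TNBS library and overlapped between the DSS groups. Timp3 made up most of the inhibitor sum. An exact permutation test of 3 against 3 libraries cannot give a two-sided p below 0.1, and none is printed for these ratios.

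The colitis models were also compared under the same treatment. Under saline, 3 of the 8 genes were called between DSS and TNBS colitis, against 46.6% of all genes, 2 of them higher in DSS (15.2% of all genes) and 1 lower (31.5%). Timp3 averaged 22.4 ± 0.703 FPKM in DSS saline and 5.57 ± 0.861 FPKM in TNBS saline libraries (SD, n = 3 each), a log2 difference of 1.84 ± 0.21 (SE, limma adjusted p = 0.000146), called whichever library was left out. Mmp3 averaged 4.73 ± 1.70 FPKM in DSS saline and 1.44 ± 1.58 FPKM in TNBS saline libraries (SD), a difference of 1.39 ± 0.42 (SE, limma adjusted p = 0.0195). The Mmp3 call was lost without TNBS saline 1, TNBS saline 3 or DSS saline 1 (adjusted p between 0.0592 and 0.0735) and in a fit of the 2 saline groups alone (0.0581), and the libraries overlapped. Mmp7 was lower in DSS saline, by −2.46 ± 0.15 (SE, limma adjusted p = 1.2e-05). Of all calls between the saline groups 32.5% were higher in DSS, against 43.0% after quantile normalization and 50.9% after median-ratio rescaling. The median difference of all genes was −0.14, and relative to it Timp3 was at 1.98 and Mmp3 at 1.53.

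Under thymopentin none of the 8 genes was called between DSS and TNBS colitis, against 27.5% of all genes called by limma, 11.0% higher and 16.5% lower. The share of these calls that were higher in DSS was 40.1%, and 50.9% after median-ratio rescaling. At an unadjusted p under 0.05 limma gave Mmp13, higher in DSS, and Mmp14, lower in DSS. Mmp10 averaged 0.425 ± 0.146 FPKM in DSS thymopentin and 0.420 ± 0.146 FPKM in TNBS thymopentin libraries (SD), and the sign of its small difference turned with quantile normalization. For 3 of the 8 genes DSS and TNBS saline libraries did not overlap (2 higher in DSS, 1 lower), against 56.5% of all genes, 18.8% higher and 37.7% lower. Under thymopentin 1 did not, Mmp13, higher in DSS, against 46.2% of all genes, 18.7% higher and 27.6% lower.

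Ordered by group mean, Mmp10 ran DSS saline, TNBS saline, DSS thymopentin, TNBS thymopentin, with the libraries of the thymopentin groups overlapping and all other neighbours apart. Mmp3 was highest in DSS saline, apart from DSS thymopentin, below which all neighbours overlapped. For Mmp7 only TNBS saline was apart from its neighbour. Timp3 ran DSS saline, DSS thymopentin, TNBS thymopentin, TNBS saline, and the thymopentin groups overlapped. For Mmp2 and Timp1 every neighbouring pair of groups overlapped.

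Genes with patterns most like those called were taken by Pearson's r of log2(FPKM + 1) over the 12 libraries. Nearest to Mmp7 were Myl7 (0.963), Aplp1 (0.897) and Ide (0.897). Nearest to Mmp10 were S100a9 (0.938), S100a8 (0.922) and Saa3 (0.900). Nearest to Mmp3 were Ccl2 (0.936), Gmfg-ps (0.935) and Cd14 (0.931), and nearest to Timp3 were Calb2 (0.989), Tek (0.988) and Ddr2 (0.982). The libraries share groups and colitis model, and the coefficients are descriptions.

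The other genes of the system were taken from lists. Of 15 further metalloproteinase genes 5 were tested and none was called by limma with thymopentin in either model. At an unadjusted p under 0.05 there was 1 in DSS and 0 in TNBS colitis, and the median changes were 0.13 in TNBS and −0.30 in DSS colitis, against 0.03 and 0.12 over all genes. Mmp11 (stromelysin 3) averaged 1.21 ± 0.31 FPKM in DSS thymopentin and 2.01 ± 0.42 FPKM in DSS saline libraries (SD, log2 change −0.45, limma adjusted p = 0.0679). Mmp23 averaged 2.59 ± 0.589 FPKM in DSS thymopentin and 3.30 ± 0.253 FPKM in DSS saline libraries (SD, log2 change −0.27, limma adjusted p = 0.166). Mmp19 averaged 1.36 ± 0.658 FPKM in DSS thymopentin and 2.25 ± 0.978 FPKM in DSS saline libraries (SD, log2 change −0.46, limma adjusted p = 0.254), and 1.21 ± 0.355 FPKM in TNBS thymopentin and 0.686 ± 0.222 FPKM in TNBS saline libraries (SD, log2 change 0.39, limma adjusted p = 0.610). Mmp15, a membrane-bound relative of Mmp14, was the most abundant family gene measured in TNBS colitis, at 23.0 ± 2.37 FPKM in TNBS thymopentin and 23.2 ± 3.13 FPKM in TNBS saline libraries (SD), and was chosen for mention after its values were seen.

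Of 8 further genes, a list of inhibitors and related genes, 4 were tested (Timp2, Reck, Spock2 and Serpinb1a). None was called by limma in either model (3 at an unadjusted p under 0.05 in each), with medians of 0.58 in TNBS and −0.52 in DSS colitis, against 0.03 and 0.12 over all genes, but 3 of the 4 responses differed between the models, all lower in DSS, against the 5.15% of all genes. Timp2, which with Mmp14 activates pro-Mmp2, averaged 16.9 ± 3.0 FPKM in DSS thymopentin and 27.5 ± 4.9 FPKM in DSS saline libraries, and 14.5 ± 4.4 FPKM in TNBS thymopentin and 8.47 ± 1.84 FPKM in TNBS saline libraries (SD, n = 3). Its responses differed by −1.35 (limma adjusted p = 0.0378). Reck, a membrane-anchored inhibitor, had responses that differed by −0.84 (adjusted p = 0.0287), and Spock2, a matrix proteoglycan, by −1.40 (adjusted p = 0.0374). Of the 10 fibroblast markers 3 rose in TNBS and 3 fell in DSS colitis, where 0.283% and 4.30% of all genes did so. The part of these markers in the differing responses was not tested.

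Of 20 ADAM and ADAMTS proteases, relatives with an adhesive or matrix-binding part, 10 were tested. In DSS colitis 1 rose and 2 fell, against 12.7% and 4.30% of all genes, and in TNBS colitis none was called by limma (3 higher at an unadjusted p under 0.05). The median change was 0.26 in TNBS and −0.06 in DSS colitis, against 0.03 and 0.12 over all genes. Adamts1, an aggrecanase, averaged 0.912 ± 0.381 FPKM in DSS thymopentin and 3.97 ± 0.94 FPKM in DSS saline libraries (SD), a change of −1.38 (limma adjusted p = 0.00276). Adamts8 changed by −0.57 (limma adjusted p = 0.0399) and the epithelial disintegrin Adam15 by 0.36 (limma adjusted p = 0.0480).

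Of 18 genes of plasminogen and proprotein activation, whose products cut pro-enzymes of the family, 12 were tested. None was called by limma in TNBS colitis (3 higher and 1 lower at an unadjusted p under 0.05), and 2 fell in DSS colitis, where 17.0% of all genes were called and 4.30% fell. The median change was 0.03 in TNBS and −0.24 in DSS colitis, against 0.03 and 0.12 over all genes. Plat, tissue plasminogen activator, averaged 0.985 ± 0.290 FPKM in DSS thymopentin and 3.37 ± 0.39 FPKM in DSS saline libraries (SD), a change of −1.15 (limma adjusted p = 0.00364). F2r, a thrombin receptor that matrix metalloproteinases can also cut, changed by −0.51 (limma adjusted p = 0.0320).

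Of 27 cytokines, receptors and transcription factors known to act upstream of metalloproteinase genes, 21 were tested. In TNBS colitis 1 rose and 1 fell, where 0.283% of all genes rose and 0.384% fell. In DSS colitis 2 rose and 5 fell, where 12.7% of all genes rose and 4.30% fell. The median changes were −0.07 in TNBS and −0.18 in DSS colitis, against 0.03 and 0.12 over all genes. Tnf, a cytokine that induces several of the proteases, averaged 2.18 ± 0.39 FPKM in TNBS thymopentin and 5.98 ± 1.09 FPKM in TNBS saline libraries, and 2.82 ± 1.21 FPKM in DSS thymopentin and 7.51 ± 0.20 FPKM in DSS saline libraries (SD, n = 3). It fell in both models, by 1.13 in TNBS (limma adjusted p = 0.0461) and 1.20 in DSS colitis (limma adjusted p = 0.00585). Etv4, an ETS factor, rose in both, by 0.85 and 0.66 (limma adjusted p = 0.0465 in TNBS and 0.0208 in DSS colitis). In DSS colitis the receptor subunit Osmr fell by 0.66 (limma adjusted p = 0.00305), Il22 by 2.40 (limma adjusted p = 0.0164), Il1b by 1.38 (limma adjusted p = 0.0380) and Tnfrsf1a by 0.38 (limma adjusted p = 0.0307), and the receptor Il22ra1 rose by 0.88 (limma adjusted p = 0.0302). Il22 rested on DSS saline libraries that spread from 0.969 to 13.1 FPKM.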

How the data were processed

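Colon RNA of 12 libraries was measured by the authors as FPKM for 55335 genes, and these deposited values were used as they stand. Build mm9 and the tools STAR 2.5, DESeq 1.22.1, Cuffnorm and FastQC appear in the submitters' processing notes without a role. Neither the gene models nor the strand setting is stated there. For 1173 selected genes in TNBS and 2326 in DSS colitis the authors also deposited log2 fold changes, p-values and FDR, with per-library log2 values that equal log2(reads over a size factor, plus 1). All 7326 of these values at up to 30 reads came out whole within 0.01, which gave the reads printed for Mmp7, Mmp10 and Mmp9. Depth is otherwise unknown, and where a gene shares near-identical sequence with a relative, as in a multigene family, how shared reads were counted is not stated.

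Groups came from the treatment labels and replicate numbers from the titles. Values were taken as log2(FPKM + 1), genes with a mean of at least 1 FPKM were kept (13794), and limma 3.58.1 in R 4.3.3 was fitted to all 4 groups with 8 residual degrees of freedom and Benjamini-Hochberg adjustment. Python 3.11.15 with pandas 2.3.3 and matplotlib 3.10.9 did the rest. The fit was tested on simulated data. The genes, lists and comparisons were chosen with earlier results of these data known. Named were all 10 genes; from each further list the genes called with thymopentin, or else the 3 with the smallest p; and the 3 genes most alike to each called gene. Alternatives covered the pseudocount, the filter, the scaling, weights per library, a replicate block, fits of 2 groups and leaving out each library.

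Deviations from the group means of same-numbered TNBS libraries correlated at 0.124, 0.268 and 0.476. Unlike-numbered TNBS libraries correlated at −0.442 to 0.287, the highest being thymopentin 1 with saline 2. These values do not establish a pairing, so the main fit used none and the replicate block was an alternative only. In DSS colitis the values were −0.136, 0.0427 and −0.14, which neither establish nor exclude a pairing.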

Additional observations from a re-analysis of the deposited data

Results flagged for a closer look

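The difference between the DSS and TNBS responses to thymopentin, tested by limma as an interaction term, passed the adjusted threshold for 10 of the named genes. Searched were the 8 tested genes and the tested genes of the further lists. Those held 5 metalloproteinases, 4 inhibitors and related genes, 10 ADAM and ADAMTS proteases, 12 activation genes and 21 upstream genes. Over all genes 5.15% passed, 2.73% with the response higher in DSS colitis and 2.42% lower. It was 2.32 log2 units for Mmp7 and −1.52 for Timp3. With Mmp7 hardly expressed in either DSS group, its value restates the fall in TNBS colitis. In the list of inhibitors and related genes outside the 10 genes the difference was −0.84 for Reck, −1.40 for Spock2 and −1.35 for Timp2. It was −1.64 for Adamts1, −0.94 for Adamts8, −1.35 for Plat, −0.98 for F2r and −0.57 for Osmr. In all 9 other than Mmp7 the response in DSS colitis was the lower one.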

How the results depend on the processing

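Of the results recomputed under the alternatives, 779 kept their direction and side of the threshold, 34 lost a call, 19 gained one and 15 changed sign. The 779 include uncalled results that stayed uncalled. The Timp3 call in DSS colitis was lost in 13 of 22 settings and the Mmp10 call in TNBS colitis in 10 of 21. The Mmp7 call in TNBS colitis was lost in 1 of 21, and the Mmp10 call in DSS colitis was kept in all 21. Among the 8 genes, the TNBS count called lower (2) was 1 with a pseudocount of 0.01, without a filter, with the replicate block and in a fit of 2 groups, and 0 at a mean of at least 5 FPKM. It was 3 with array weights. The DSS count called lower (2) was 1 with pseudocounts of 0.1 and 0.01, without a filter, at 5 FPKM and in the added setting. It was 3, with Mmp3 added, with quantile normalization, array weights, the replicate block and in a fit of 2 groups. The count of differing responses called higher (1) was 0 with a pseudocount of 0.01 and at 5 FPKM, and that called lower (1) was 0 without a filter and 2 with array weights. Between DSS and TNBS saline the count called higher (2) was 1 at 5 FPKM and in a fit of 2 groups and 4 with array weights, and that called lower (1) was 2 without a filter and 0 at 5 FPKM. The count called higher was 3 without a filter, with median-ratio rescaling, with the replicate block and in the added setting. Under thymopentin 1 gene, Mmp13, was called higher in DSS with a pseudocount of 0.01. At 5 FPKM only Mmp2, Mmp14 and Timp3 were tested, and array weights, which did not fully converge, also called 1 gene, Timp3, higher in TNBS colitis. The cause of the other changes was not tested.

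Over all genes, TNBS calls (92) were 44 without a filter, 6 in a fit of 2 groups and 2547 with array weights. DSS calls (2346) were 1447 at 5 FPKM and 4025 with array weights. Differing responses (710) were 355 without a filter, 385 at 5 FPKM and 2889 with array weights, and DSS against TNBS saline calls (6431) were 3661 at 5 FPKM.

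Leaving out each library in turn gave 41 to 116 TNBS and 923 to 2505 DSS calls, 176 to 764 differing responses, 5347 to 6434 calls between the saline groups and 2052 to 3999 between the thymopentin groups. Among the 8 genes it gave 1 to 2 lower and 0 to 1 higher calls in TNBS colitis, 1 to 2 lower in DSS colitis, 0 to 1 lower in the differing responses, 1 to 2 higher between the saline groups, and 0 to 1 in each direction between the thymopentin groups.

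Signs turned only for uncalled changes. The Mmp14 difference of DSS against TNBS saline was 0.17 with quantile normalization, 0.16 with median ratios, 0.10 with array weights, and −0.0512 to 0.0540 on leaving out libraries, and that of Mmp13 was −0.10 with array weights. Under thymopentin that of Mmp10 was −0.12 with quantile normalization, −0.0398 with array weights, and −0.0750 to 0.0831 on leaving out libraries. Leaving out libraries gave TNBS changes of −0.840 to 0.0529 for Mmp3 and −0.420 to 0.0738 for Timp1, positive without TNBS saline 2. It gave −0.450 to 0.0445 for the differing response of Timp1, positive without TNBS saline 3, and −0.151 to 0.0125 for the DSS change of Mmp7, positive without DSS saline 2.

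With the replicate block, 4 residual degrees of freedom remained. Mmp10 in TNBS colitis was no longer called (adjusted p = 0.0654), Mmp3 in DSS colitis became called (0.0380), as did Timp1 between DSS and TNBS saline (0.0290), and no other call among the 8 genes changed. A pairing was not established in either model, so these values are no paired results. In TNBS thymopentin libraries Mmp7 had 5 to 9 reads and Mmp9 15 to 24, and the size of change that such reads can show was not tested.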
